A study of Arabidopsis thaliana with 12 samples.

Results

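Genes annotated to the proteasome were followed in whole 7-day-old seedlings of Arabidopsis thaliana. They were taken as every row of the deposited expression table whose description contains "proteasome" or "26S protease regulatory subunit". This gave 67 of 32833 genes. By their symbols, 24 encode subunits of the core particle (13 of its alpha ring and 11 of its beta ring) and 31 encode subunits of the regulatory particle (10 base ATPases, 6 other base subunits and 15 lid subunits). The other 12 carry the word in another setting, such as an activator, inhibitors and assembly factors. One known ATPase gene, RPT1B, is described in the table by another protein family and is therefore not among the 67.

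The 26S proteasome is the protease that degrades proteins tagged with chains of ubiquitin. Its core particle is a barrel of alpha rings, which gate the entrance, around beta rings, which hold the proteolytic sites. The regulatory particle sits on the barrel's end: its lid removes ubiquitin chains, and its base holds a ring of ATPases that unfolds the substrate and threads it into the core. In Arabidopsis most subunits are encoded by a pair of gene copies, so that particles of different copy composition can form. Heat damages proteins, and the clearance of misfolded protein by the proteasome is one branch of protein quality control.

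The 12 libraries formed 4 groups of 3. A hop1 hop2 hop3 mutant, called hop here, was held at 38 °C for the last 3 h (hop heat) or kept under control conditions (hop control). Wild type Col-0 had the same 2 treatments (wt heat and wt control). HOP proteins are co-chaperones that bring HSP70 and HSP90 together, and the series' title names their role in long term acquired thermotolerance. The labels do not tell whether the 3 libraries of a group were grown apart, and p-values therefore rest on a spread that could be technical.

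Libraries held 26.1 to 38.7 M fragments. HOP2 averaged 4718 ± 587 normalized fragments in hop heat against 8002 ± 657 in wt heat, and 7.07 ± 0.664 in hop control against 555.5 ± 76.5 in wt control (SD, n = 3 each). HOP3 averaged 1272 ± 66.8 in hop heat against 111381 ± 19304 in wt heat, and 4.55 ± 4.70 in hop control against 80.7 ± 6.92 in wt control. HOP1 was not lower under heat in the libraries labelled as its mutant, with 2068 ± 359 in hop heat against 1216 ± 197 in wt heat. At control its mean was slightly lower, with 596 ± 69.6 in hop control against 650 ± 98.6 in wt control. A count over the whole gene does not show whether an intact transcript was made. The summed level of 3 green tissue markers (RBCS1A, LHCB2.1, CAB1) was 1319681 to 1667130 in hop heat, 1031655 to 1369270 in wt heat, 1040762 to 1252886 in hop control and 957696 to 1109037 in wt control. The 3 root markers (EXPA7, COBL9, PRP3) summed to 282 to 376 in hop heat, 402 to 531 in wt heat, 328 to 566 in hop control and 412 to 486 in wt control. The 3 seed storage markers (CRA1, CRU3, OLEO1) summed to at most 612, in a wt heat library, and CRU3 was at 0 in 1 wt heat and 1 wt control library. The part of tissue makeup in the results below was not tested.

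Heat was compared with control first, in each genotype. In limma's test across 23827 genes, 65 of the 67 genes passed the filter on low values. Genes with a p under 0.05 after Benjamini-Hochberg adjustment over all genes tested are called higher or lower. AT4G08140 and AT5G38650 were at 0 in all 12 libraries and were not tested. AT5G38650 shares 1855 bases with another gene on the same strand. How reads there were counted is not given, so its 0 does not show that it was silent. With the authors' scaling, 34 genes were higher and 9 lower under heat in hop, and 35 higher and 7 lower in wt, whereas scaling by library size alone gave 6 higher and 50 lower in hop and 7 higher and 45 lower in wt. Of all genes tested, 33.3% were called higher and 35.2% lower in hop with the authors' scaling, and 33.2% higher and 35.8% lower in wt. Scaled by library size, 13.1% of all genes were higher and 61.8% lower in hop, and 13.3% higher and 60.9% lower in wt. The 2 scalings differ in where they put the median gene: the median of all genes lay at -0.06 in hop and -0.08 in wt (log2 fold change) in the main test, and at -0.97 in hop and -0.94 in wt by library size alone. The median of the 65 genes was 0.31 in hop and 0.33 in wt with the authors' scaling and -0.60 in hop and -0.55 in wt by library size alone, which is 0.37 and 0.39 above the median of all genes on that scale. Rises and falls below are on the authors' scale unless said otherwise. In whole seedlings, fewer cells of a type and less RNA per cell cannot be told apart.

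Changes of 2-fold or more were called for 8 genes that rose and 3 that fell in hop and for 7 that rose and 2 that fell in wt. Among all genes tested, 18.1% rose and 22.3% fell by that much in hop, and 17.9% rose and 23.1% fell in wt. RPN6, PBC2, RPN9A, RPN2B, EER5 and the probable proteasome inhibitor AT3G53970 rose at least 2-fold in both genotypes and were called higher by both scalings in both. RPN13 also rose at least 2-fold in both genotypes, and was called higher by both scalings in wt but not by library size alone in hop. At the other end, RPN3B fell to 26.3% of its control level in hop and 25.4% in wt, and was called lower by both scalings. For 25 of the genes called higher in hop and 28 of those called higher in wt, the fold change lay below 0 by library size alone. Across the 65 genes the heat responses of the genotypes, which share no library, had a Pearson correlation of 0.89, given as a description over genes that are not independent. In both genotypes together, 33 genes were called higher and 5 lower, and 0 were called in opposite directions. Neither these counts nor the correlation were computed over all genes, so they are not set apart from those of other genes.

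**Figure D1:**
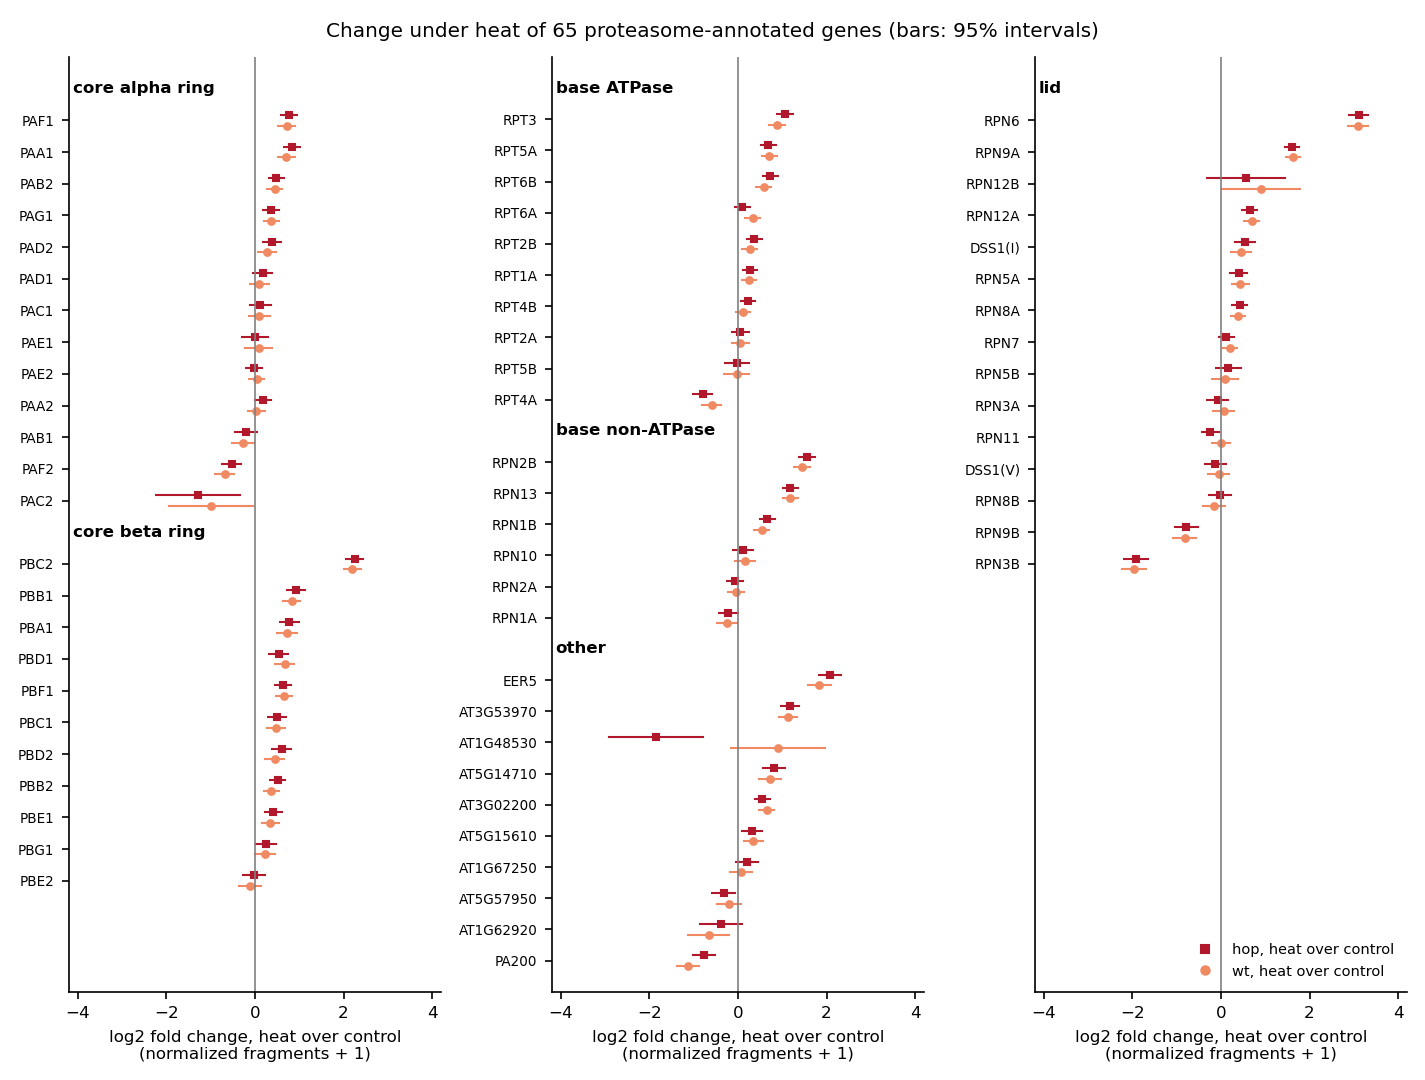
Log2 fold change under heat over control on log2(normalized fragments + 1), on the horizontal axis, for the 65 tested genes by class, in hop (squares) above wt (circles), with 95% intervals as bars. RPN6 lies farthest to the right at 3.11 in hop and 3.10 in wt, and RPN3B at -1.92 and -1.97; by library size alone, most values between these ends lie below 0.

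The beta ring was the class with the largest share of rises. In both genotypes 9 of its 11 genes were higher and 0 lower, with a median log2 fold change of 0.53 in hop and 0.48 in wt, but scaled by library size 1 was higher in each genotype and 8 in hop and 6 in wt were lower. For this and each class below, the shares of all genes were 33.3% higher and 35.2% lower in hop. In wt they were 33.2% and 35.8%. By library size alone they were 13.1% and 61.8% in hop and 13.3% and 60.9% in wt. PBC2 (AT1G77440), a copy of a noncatalytic subunit, had 2429, 2367 and 2226 normalized fragments in hop heat and 2344, 2718 and 2364 in wt heat, compared with 533, 462 and 478 in hop control and 544, 517 and 558 in wt control. All heat libraries lay above all control libraries, as groups did without overlap for 70.4% of all genes in hop and 72.4% in wt. Its log2 fold change was 2.25 ± 0.09 in hop and 2.19 ± 0.09 in wt (SE, limma adjusted p = 5.58e-12 and 8.37e-12).

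The remaining beta genes moved less. The genes of the proteolytic subunits, PBA1 (caspase-like), PBB1 and PBB2 (trypsin-like) and PBE1 (chymotrypsin-like), rose in both genotypes, by 0.41 to 0.92 in hop and 0.35 to 0.83 in wt on the log2 scale, and none of these 4 was called higher by library size alone. PBE2 (AT3G26340), the minor copy of the chymotrypsin-like subunit and the beta gene with the lowest fold change, had 228, 297 and 240 in hop heat and 233, 270 and 237 in wt heat, compared with 258, 275 and 244 in hop control and 269, 262 and 265 in wt control. Its heat and control libraries overlapped in both genotypes, and neither fold change was called (-0.03 in hop and -0.11 in wt). PBF1 (AT3G60820), a noncatalytic subunit, had the highest level per coding length of the beta genes when averaged over the 4 groups, although PBC2 was above it in hop heat. It had 2604, 2462 and 2431 in hop heat and 2592, 2876 and 2683 in wt heat, compared with 1651, 1656 and 1518 in hop control and 1643, 1754 and 1779 in wt control. PBF1 rose by 0.64 ± 0.08 in hop and 0.65 ± 0.08 in wt (adjusted p = 4.41e-06 and 3.28e-06), a rise that turns to -0.29 and -0.23 by library size alone.

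In the alpha ring fewer genes were called. In hop 5 of 13 alpha genes were higher and 2 lower and in wt 5 were higher and 1 lower, with medians of 0.17 and 0.10, and scaling by library size gave 0 higher and 11 lower in each. The 38.5% called higher in each genotype was near the share of all genes, 33.3% in hop and 33.2% in wt. PAF1 (AT5G42790), the alpha gene with the highest level per coding length under heat, where PAC1 led at control, had 2911, 2750 and 2658 in hop heat and 2552, 2780 and 2516 in wt heat, compared with 1649, 1713 and 1527 in hop control and 1711, 1454 and 1614 in wt control. It rose by 0.77 ± 0.09 in hop and 0.72 ± 0.09 in wt (adjusted p = 1.5e-06 and 3.18e-06), against -0.16 and -0.17 by library size alone. The lowest fold change in the ring was that of PAC2 (AT4G15165), a barely detected gene copy, with 1.33, 5.80 and 4.13 in hop heat and 5.29, 9.93 and 5.27 in wt heat, compared with 5.98, 9.19 and 15.6 in hop control and 11.0, 14.7 and 17.2 in wt control. PAC2 fell by 1.29 in hop (adjusted p = 0.0185), a call that was lost without hop heat replicate 1 (adjusted p = 0.103) or hop control replicate 3 (0.0959), and was not called in wt (adjusted p = 0.0596).

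Among the ATPases of the base, which unfold the substrate, 6 of 10 genes were higher and 1 lower in each genotype, but 0 were higher and 8 lower by library size alone. RPT3 (AT5G58290) rose most and had the highest level per coding length of the ATPase genes under heat, while RPT1A and RPT5A were above it at control. It had 4595, 4839 and 4454 in hop heat and 4232, 4330 and 3869 in wt heat, compared with 2059, 2219 and 2331 in hop control and 2151, 2294 and 2288 in wt control. All heat libraries lay above all control libraries, with log2 fold changes of 1.07 ± 0.08 in hop and 0.88 ± 0.08 in wt (adjusted p = 1.99e-08 and 1.85e-07), and of 0.14 in hop and -0.0038 in wt by library size alone, neither called. RPT4A (AT5G43010), a copy of another ATPase, was the only called fall of the class. It had 407, 398 and 339 in hop heat and 402, 420 and 472 in wt heat, compared with 650, 715 and 619 in hop control and 635, 665 and 645 in wt control. RPT4A fell by 0.80 ± 0.10 in hop and by 0.59 ± 0.10 in wt (adjusted p = 4.24e-06 and 8.96e-05).

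The base also holds scaffold subunits and ubiquitin receptors. In hop 3 of these 6 genes were higher and 0 lower, and in wt 3 were higher and 1 lower, against 1 higher and 4 lower in hop and 2 higher and 4 lower in wt by library size alone. RPN2B (AT1G04810), a copy of a large scaffold subunit, had 3659, 3671 and 3884 in hop heat and 3604, 3714 and 3213 in wt heat, compared with 1183, 1267 and 1340 in hop control and 1247, 1354 and 1257 in wt control. The groups did not overlap, and RPN2B rose by 1.57 ± 0.09 in hop and 1.45 ± 0.09 in wt (adjusted p = 2.88e-10 and 7.64e-10). RPN13, a ubiquitin receptor, rose by 1.18 in each genotype, to means of 1171 ± 36.1 in hop heat and 1236 ± 52.9 in wt heat, compared with 515 ± 3.41 in hop control and 546 ± 23.6 in wt control. The other receptor, RPN10 (AT4G38630), was the most abundant of these genes per coding length and was not called. It had 1903, 1730 and 1545 in hop heat and 1650, 2017 and 1749 in wt heat, compared with 1712, 1597 and 1471 in hop control and 1770, 1494 and 1579 in wt control. RPN1A (AT2G20580), a copy of the scaffold that docks shuttle proteins, had 1750, 1764 and 1446 in hop heat and 1490, 1750 and 1538 in wt heat, compared with 1955, 2033 and 1776 in hop control and 1942, 1962 and 1763 in wt control. It fell by 0.25 in wt (adjusted p = 0.0402), was not called in hop (-0.22, adjusted p = 0.0656), and its wt call was lost without wt heat replicate 1 (0.142) or 3 (0.104) or wt control replicate 1 (0.0979) or 2 (0.111).

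The lid, whose RPN11 subunit cuts ubiquitin chains off the substrate, held both the largest rise and the largest fall. Of its 15 genes, 6 were higher and 3 lower in hop and 7 were higher and 2 lower in wt, against 2 higher and 12 lower in hop and 2 higher and 11 lower in wt by library size alone. The share called higher was 40% in hop and 46.7% in wt, beside 33.3% and 33.2% of all genes. RPN6 (AT1G29150) encodes a lid subunit known from yeast to clamp the lid to the core and the ATPase ring. It had 13411, 13129 and 11018 in hop heat and 11617, 13278 and 11218 in wt heat, compared with 1540, 1488 and 1325 in hop control and 1479, 1357 and 1373 in wt control. The lowest heat library was therefore far above the highest control library. RPN6 rose 8.63-fold in hop and 8.58-fold in wt, or 3.11 ± 0.10 and 3.10 ± 0.10 on the log2 scale (adjusted p = 6.59e-13 and 7.19e-13), and 2.18 and 2.21 by library size alone.

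RPN9A (AT5G45620), a copy of a scaffold subunit of the lid, had 2433, 2471 and 2360 in hop heat and 2248, 2315 and 2364 in wt heat, compared with 765, 837 and 779 in hop control and 732, 745 and 752 in wt control. It rose 3.05-fold in hop and 3.11-fold in wt (adjusted p = 3.84e-11 and 3.34e-11). RPN3B (AT1G75990), a copy of another scaffold subunit, had 91.4, 104 and 80.5 in hop heat and 104, 87.7 and 94.9 in wt heat, compared with 365, 348 and 337 in hop control and 353, 390 and 385 in wt control. All its heat libraries lay below all control libraries, and it fell by 1.92 ± 0.12 in hop and by 1.97 ± 0.12 in wt (adjusted p = 1.83e-09 and 1.46e-09). RPN11 itself fell by 0.24 in hop (adjusted p = 0.0309) and had -0.0042 in wt, which was not called.

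**Figure D2:**
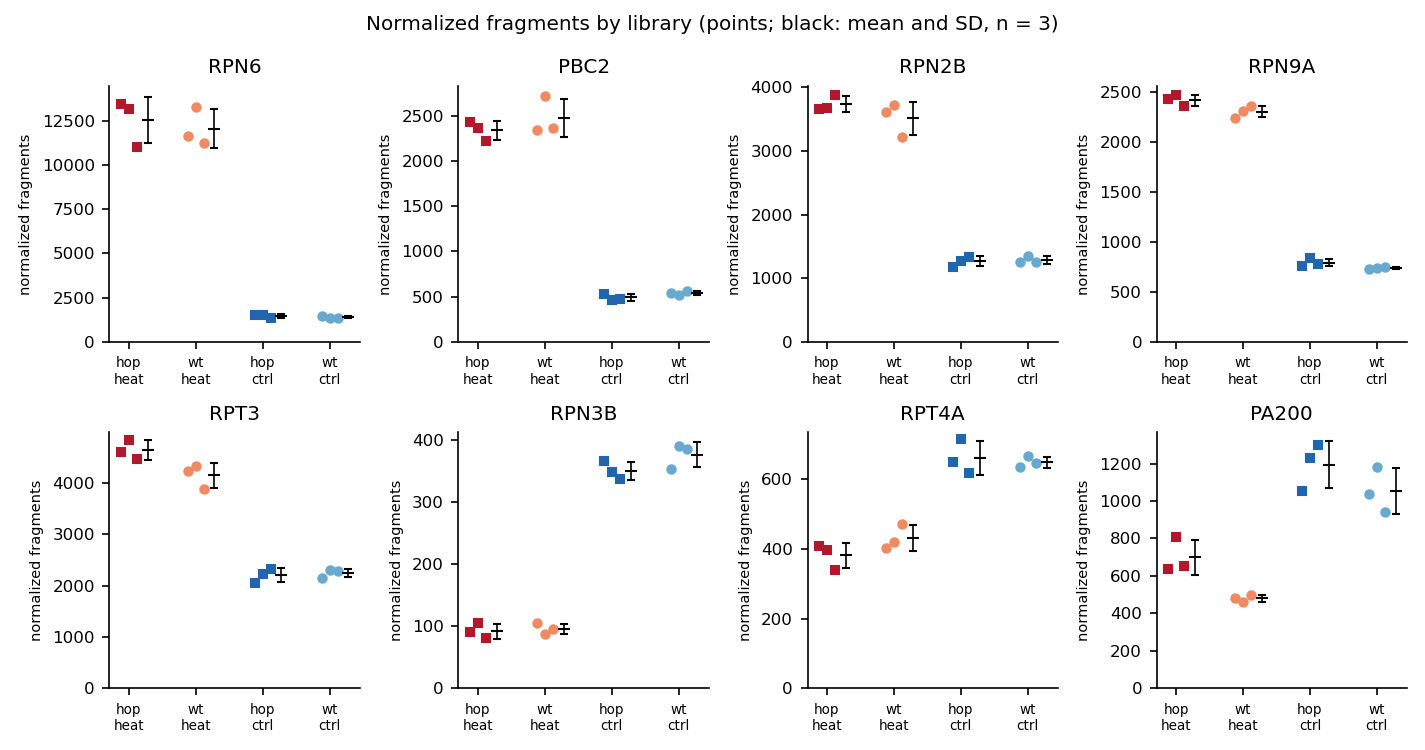
Normalized fragments (vertical axes, from 0) in each library of hop heat, wt heat, hop control and wt control for 8 genes, as points, with the mean and SD of 3 libraries in black. RPN6, PBC2, RPN2B, RPN9A and RPT3 are higher in every heat library than in any control library, and RPN3B, RPT4A and PA200 lower; by library size alone RPT3 shows no called change.

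The sequences in front of 4 of these genes are shown because the genes carry the largest rise of the lid (RPN6), of the other base subunits (RPN2B) and of the ATPases (RPT3), and the largest fall (RPN3B). Each is the 250 bases before the gene's start as annotated by RefSeq in TAIR10.1, read 5′ to 3′ on the gene's strand; genes were matched by locus code, since the deposited table names no build. Capitals mark TGGGC or its reverse complement, the telo box AAACCCTA, or the inverted repeat GAANNTTC. TGGGC is known in Arabidopsis as the core of an element bound by the NAC transcription factors NAC053 and NAC078 in front of proteasome genes, and inverted GAA and TTC units make up heat shock elements.
RPN6, chr1:10180052-10180301, plus strand: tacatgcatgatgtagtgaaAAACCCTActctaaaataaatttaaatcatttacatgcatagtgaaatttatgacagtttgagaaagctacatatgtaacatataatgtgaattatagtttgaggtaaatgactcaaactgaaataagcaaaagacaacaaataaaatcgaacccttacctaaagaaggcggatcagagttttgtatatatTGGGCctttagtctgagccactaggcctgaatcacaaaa
RPN2B, chr1:1349830-1350079, plus strand: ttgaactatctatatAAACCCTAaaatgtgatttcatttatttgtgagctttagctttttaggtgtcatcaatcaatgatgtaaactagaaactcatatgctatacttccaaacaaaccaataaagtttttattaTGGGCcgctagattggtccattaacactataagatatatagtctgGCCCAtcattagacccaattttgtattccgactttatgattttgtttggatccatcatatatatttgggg
RPT3, chr5:23568802-23569051, plus strand: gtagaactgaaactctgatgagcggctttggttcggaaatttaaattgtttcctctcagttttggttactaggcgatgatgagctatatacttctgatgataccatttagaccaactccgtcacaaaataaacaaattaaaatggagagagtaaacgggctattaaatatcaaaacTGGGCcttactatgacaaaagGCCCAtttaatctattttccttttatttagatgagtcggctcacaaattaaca
RPN3B, chr1:28526849-28527098, minus strand: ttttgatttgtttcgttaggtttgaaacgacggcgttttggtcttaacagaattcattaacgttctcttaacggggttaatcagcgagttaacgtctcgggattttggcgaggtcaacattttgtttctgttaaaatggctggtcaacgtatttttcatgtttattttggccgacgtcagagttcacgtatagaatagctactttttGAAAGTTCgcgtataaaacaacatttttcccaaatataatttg

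RPN6 has 1 TGGGC, 39 bases before the start, RPT3 has 2, at 74 and 53 bases, and RPN2B has 2, at 115 and 70 bases. RPN3B has none, and holds 1 GAANNTTC at 43 bases. Over all 67 genes, 31 windows (46.3%) held TGGGC on either strand, against 6231 of 27443 windows of the same length (22.7%) before protein-coding genes of the table. The share was 54.2% before core genes (13 of 24) and 41.9% before regulatory genes (13 of 31), and windows with 2 or more were 35.8% of the 67 and 12.6% of all. An inverted repeat, as GAANNTTC or TTCNNGAA on either strand, was in 9 of 67 windows (13.4%) and in 16.1% of all. The telo box was in 3 of 67 windows (4.48%) and in 4.49% of all. The windows before PBC2 and RPN9A, which also rose at least 2-fold, held none of these motifs. A match is a description of these letters, and no match says only that they are not in this window.

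The 12 genes outside both particles differed among themselves. In hop 5 of the 10 tested were higher and 3 lower and in wt 5 were higher and 2 lower, against 2 higher and 7 lower in hop and 2 higher and 5 lower in wt by library size alone. EER5 (AT2G19560), described as a proteasome family protein and named for an enhanced ethylene response, had 1154, 939 and 1116 in hop heat and 879, 1085 and 907 in wt heat, compared with 254, 234 and 271 in hop control and 296, 237 and 268 in wt control. The groups did not overlap, and it rose by 2.07 ± 0.12 in hop and 1.84 ± 0.12 in wt (adjusted p = 4.3e-10 and 1.84e-09). PA200 (AT3G13330), a single-chain activator that caps the core in place of the regulatory particle, had 636, 807 and 655 in hop heat and 482, 462 and 496 in wt heat, compared with 1053, 1231 and 1301 in hop control and 1040, 1180 and 940 in wt control. It fell by 0.77 ± 0.12 in hop and by 1.13 ± 0.12 in wt (adjusted p = 2.19e-05 and 3.94e-07).

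AT3G53970, a probable proteasome inhibitor, rose by 1.17 in hop and 1.13 in wt. AT5G14710, described by a domain of proteasome assembly chaperone 3, rose by 0.81 in hop and 0.72 in wt, against -0.10 and -0.15 by library size alone. The genes described as the maturation factor UMP1 were AT1G67250, AT1G62920 and AT5G38650. AT1G67250 was not called in either genotype (0.20 in hop and 0.06 in wt). AT1G62920, at means of 26.9 to 44.5 in the 4 groups, was called lower in wt by both scalings and was not called in hop. AT5G38650 was at 0 throughout, with the limit of its same-strand overlap given above. AT3G02200, described as a PCI domain protein, was the most abundant of the 12 per coding length, with 2647, 2513 and 2643 in hop heat and 2362, 2330 and 2416 in wt heat, compared with 1803, 1677 and 1841 in hop control and 1518, 1454 and 1566 in wt control. It rose by 0.55 in hop and 0.65 in wt, and stood at -0.37 and -0.23 by library size alone. AT1G48530, described by a PI31 inhibitor domain, was at 0 in the 3 hop heat libraries and at most 4.95 in any library, so that its called fall in hop (adjusted p = 0.00374) rests on few fragments.

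Within a subunit, the 2 gene copies often responded unequally. The ratio of copies does not depend on the scaling between libraries, except through the 1 added to each value, which matters for copies of few fragments. Of 22 subunits with 2 copies, 19 changed their copy ratio under heat at an adjusted p under 0.05 in a two-sided exact permutation test of heat against control within genotype, adjusted over the 22 pairs. The 400 assignments of that test allow a p of 0.005 at best, which 17 pairs reached, and in 17 pairs the ratios of heat and control libraries did not overlap in either genotype. Ratios of gene pairs outside the proteasome were not computed, so these counts are not set apart from those of other genes. The levels of single genes did not overlap for 70.4% of all genes in hop and 72.4% in wt. The change in log2 ratio was at least 1 in 6 pairs and under 0.3 in 6. The coding sequences of copies were 80.3% to 94.4% identical in RefSeq, and the authors' handling of reads that could fit both copies is not given, so small unequal changes carry that uncertainty.

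RPN9 changed most. Its copy RPN9A made up 87.2% ± 1.22 of RPN9 fragments in hop heat and 87.1% ± 0.587 in wt heat, compared with 56.5% ± 3.44 in hop control and 55.4% ± 2.81 in wt control (SD, n = 3 each). RPN9B (AT4G19006) had 366, 399 and 307 in hop heat and 329, 361 and 332 in wt heat, compared with 687, 619 and 534 in hop control and 670, 581 and 553 in wt control, while RPN9A rose at the same time. The log2 ratio of RPN9A to RPN9B was higher under heat by 2.39 ± 0.26 in hop and 2.45 ± 0.18 in wt. Here ± is the square root of the summed variances of heat and control libraries, not an error of the mean difference. PAF showed the same kind of split with calls in both directions in both genotypes. PAF2 (AT1G47250) had 294, 295 and 288 in hop heat and 241, 250 and 298 in wt heat, compared with 414, 433 and 413 in hop control and 409, 411 and 442 in wt control, and PAF1 made up 90.5% ± 0.321 of the pair in hop heat and 90.9% ± 1.26 in wt heat, compared with 79.5% ± 0.666 in hop control and 79.1% ± 1.46 in wt control. PAF2 lies over 1652 bases of a gene on the other strand, so its level depends on the strand setting of the count.

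In RPN3 the minor copy fell. RPN3A (AT1G20200) was not called, with 1091, 1119 and 892 in hop heat and 1118, 1246 and 1094 in wt heat, compared with 1150, 1114 and 983 in hop control and 1246, 1055 and 1010 in wt control. As RPN3B fell, the share of RPN3A was 91.8% ± 0.411 in hop heat and 92.3% ± 1.01 in wt heat, compared with 75.5% ± 0.932 in hop control and 74.4% ± 3.03 in wt control. In 3 subunits, PBC, RPN2 and PAB, the larger copy in every heat library was the smaller one in every control library. PBC1 (AT1G21720) had 1548, 1511 and 1347 in hop heat and 1424, 1568 and 1435 in wt heat, compared with 1159, 1030 and 944 in hop control and 1123, 988 and 1062 in wt control. Its share of PBC was 38.5% ± 0.719 in hop heat and 37.4% ± 0.689 in wt heat, compared with 68.0% ± 1.39 in hop control and 66.2% ± 1.01 in wt control.

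RPN2A (AT2G32730) had 2323, 2606 and 2199 in hop heat and 2273, 2214 and 2234 in wt heat, compared with 2346, 2537 and 2571 in hop control and 2286, 2381 and 2219 in wt control, and was not called. Its share of RPN2 was 38.8% ± 2.68 in hop heat and 39.0% ± 1.86 in wt heat, compared with 66.3% ± 0.509 in hop control and 64.1% ± 0.534 in wt control. PAC had the sixth largest change, 1.25 on the log2 scale, which rests on the few fragments of PAC2. It ranged from 0.86 to 1.45 with other pseudocounts or 1 library left out. Its partner PAC1 (AT3G22110) was not called, with 2049, 1978 and 1611 in hop heat and 1804, 1944 and 1781 in wt heat, compared with 1963, 1708 and 1525 in hop control and 1864, 1577 and 1741 in wt control.

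At the other end, PAE1 (AT1G53850) and PAE2 (AT3G14290), copies of 1 alpha subunit, kept near-equal shares. PAE1 had 829, 901 and 616 in hop heat and 685, 849 and 766 in wt heat, compared with 874, 728 and 719 in hop control and 820, 651 and 707 in wt control. PAE2 had 792, 789 and 748 in hop heat and 809, 794 and 907 in wt heat, compared with 800, 817 and 751 in hop control and 807, 819 and 817 in wt control. The change in their log2 ratio was 0.04 (exact permutation p = 0.760). RPN12 changed by -0.07 (exact permutation p = 0.750), with RPN12B (AT5G42040) at 1.23 to 6.62 normalized fragments in all libraries. RPN12A (AT1G64520), which made up nearly all of the subunit, had 2075, 2155 and 1918 in hop heat and 1976, 2136 and 2155 in wt heat, compared with 1300, 1368 and 1263 in hop control and 1227, 1274 and 1385 in wt control, and rose by 0.64 in hop and 0.69 in wt, against -0.28 and -0.19 by library size alone.

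**Figure D3:**
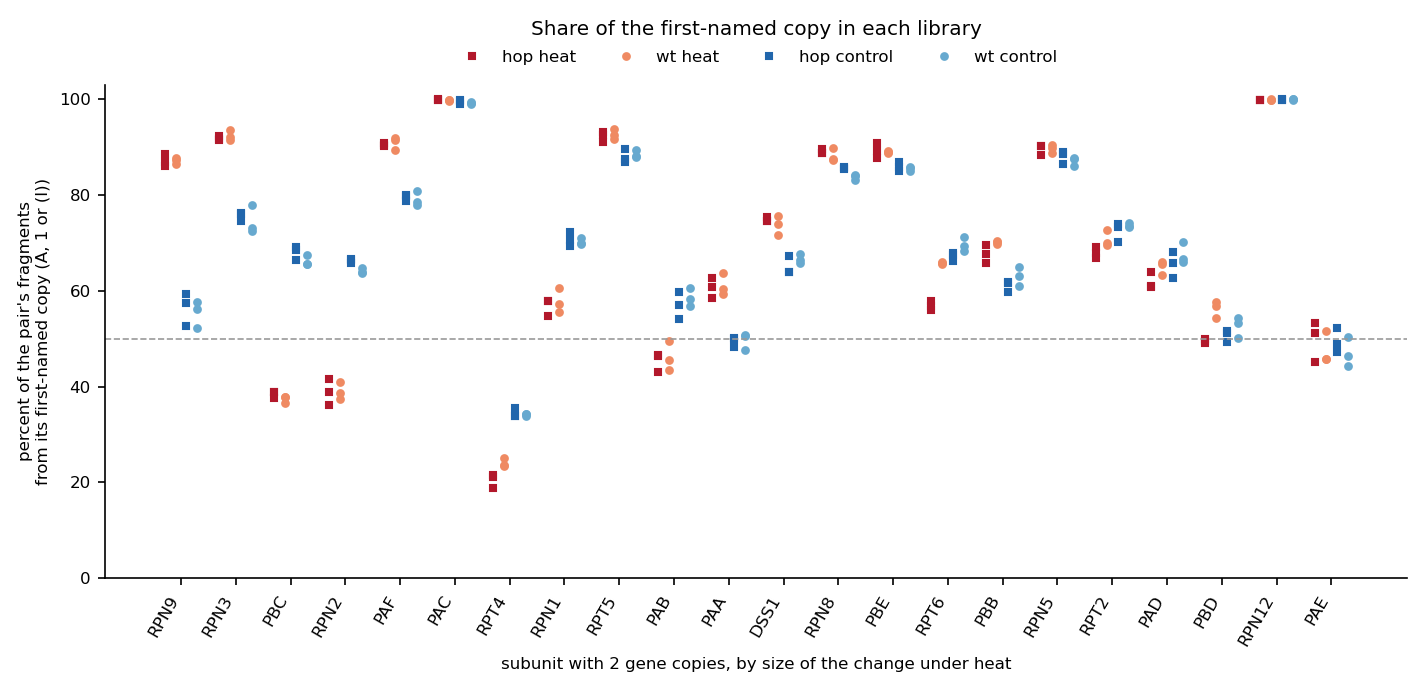
Share of the first-named copy (A, 1 or (I)) in the normalized fragments of each subunit with 2 copies, in percent, for each library of hop heat, wt heat, hop control and wt control, with subunits ordered by the size of the change under heat. RPN9, RPN3 and PAF move towards the first copy under heat, PBC and RPN2 cross 50%, and PAE stays near 50%.

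With copies summed and divided by coding length, the order of subunits shifted under heat. RPN6 was 29th of 33 subunits in hop control and in wt control and first in hop heat and in wt heat, at 9936 normalized fragments per kb of coding sequence in hop heat and 9554 in wt heat, compared with 1152 in hop control and 1114 in wt control. PBC stood at 6193 in hop heat and 6425 in wt heat, compared with 2496 in hop control and 2597 in wt control. Within the core, the highest subunit was 3.53 times the lowest in hop heat and 3.76 times in wt heat, compared with 2.08 times in hop control and 2.14 times in wt control. RPN3 was the lowest subunit under heat, at 768 in hop and 851 in wt, and RPN13 the lowest at control, at 570 in hop and 605 in wt. DSS1, the highest at control with 4764 in hop and 5710 in wt, is short, so that reads from its untranslated ends weigh more.

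The total level of the 67 genes was higher under heat on the authors' scale and lower as a share of all fragments. All 67 genes summed to 100915 ± 5081 normalized fragments in hop heat and 99379 ± 3237 in wt heat, compared with 65957 ± 1761 in hop control and 66007 ± 876 in wt control. They took 0.228% ± 0.00895 of fragments in hop heat and 0.247% ± 0.0198 in wt heat, compared with 0.283% ± 0.00856 in hop control and 0.302% ± 0.0186 in wt control. The means of each particle alone moved the same way on both measures. The regulatory share of single libraries overlapped in wt, with 0.161% in wt heat replicate 3 and 0.160% in wt control replicate 1. The ratio of core to regulatory fragments, which does not depend on scaling, was 0.546 ± 0.0127 in hop heat and 0.542 ± 0.00356 in wt heat, compared with 0.612 ± 0.0348 in hop control and 0.617 ± 0.00886 in wt control. Without RPN6 the order of the means turned, with 0.687 ± 0.0257 in hop heat and 0.677 ± 0.0137 in wt heat, compared with 0.637 ± 0.0380 in hop control and 0.641 ± 0.0101 in wt control. The libraries of heat and control then overlapped in hop (0.661 in hop heat replicate 3 and 0.671 in hop control replicate 1) but not in wt. The median log2 fold change was 0.40 over the core and 0.23 over the regulatory particle in hop, and 0.36 and 0.25 in wt, with no test of that difference.

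**Figure D4:**
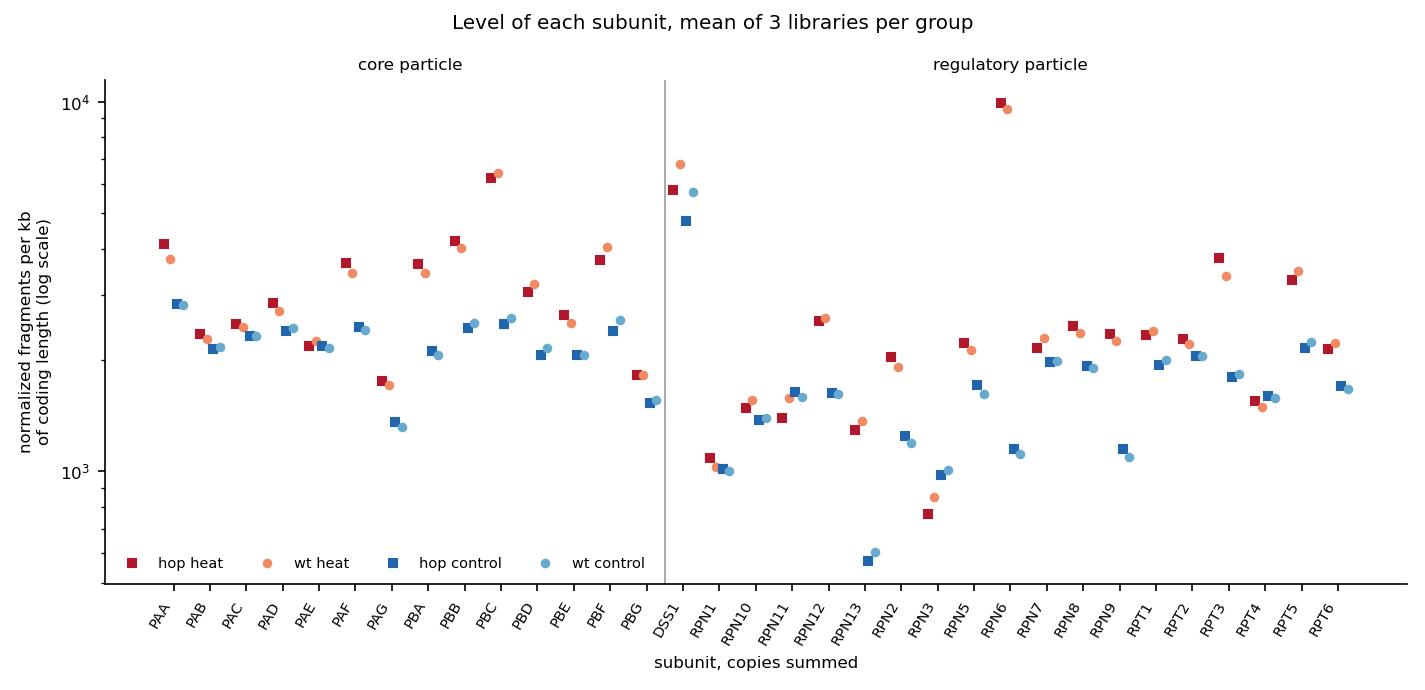
Normalized fragments per kb of coding length (log axis, copies summed, mean of 3 libraries) of 33 subunits in hop heat, wt heat, hop control and wt control, core particle on the left and regulatory particle on the right. RPN6 reaches 9936 in hop heat and 9554 in wt heat against 1152 in hop control and 1114 in wt control, and PBC is the highest core subunit under heat; levels are on the authors' scale, and by library size alone most of these genes have heat levels below control.

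The genotypes were then compared within each condition. At control, 0 of the 65 genes were called in the libraries labelled hop against wt, where 0.831% of all genes tested were. Limma gave 5 of them an unadjusted p under 0.05, against 10.3% of all genes, and edgeR and DESeq2 called 0. Among genes of the core and regulatory particle, the log2 fold changes at control lay between -0.51, for the barely detected PAC2, and 0.34, for RPN12B. Under heat 2 of the 65 were called, both higher in hop, and 17 of the 65 did not overlap between the groups, against 25.9% of all genes. Limma gave 9 an unadjusted p under 0.05, against 24.2% of all genes. Over all genes tested, 8.62% were called and 3.73% were called higher. In the difference between the heat responses of the genotypes, 0 were called by limma, edgeR or DESeq2, where 0.0504% of all genes were, and 2 had an unadjusted p under 0.05 in limma, against 9.55% of all genes.

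PA200 was the first of the 2, at 636, 807 and 655 in hop heat against 482, 462 and 496 in wt heat, and the groups did not overlap. Its log2 fold change was 0.53 ± 0.12 (limma adjusted p = 0.0112, with 0.00231 to 0.159 over the alternatives), and the call was lost without hop heat replicate 2 (0.43, adjusted p = 0.0514) and by library size alone (0.40, adjusted p = 0.159). The difference between its heat responses, 0.35 ± 0.16, was not called (adjusted p = 0.519).

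RPT6B (AT5G20000), a copy of an ATPase, had 1138, 1223 and 1141 in hop heat against 924, 961 and 995 in wt heat, and 657, 729 and 723 in hop control against 645, 645 and 629 in wt control. Its log2 fold change under heat was 0.28 ± 0.08 (adjusted p = 0.0419, with 0.0151 to 0.576 over the alternatives). The call was lost by edgeR with TMM scaling (adjusted p = 0.0824), by library size alone (0.576), with only the groups compared (0.0937), and without hop heat replicate 1 (0.0806) or 2 (0.119), wt heat replicate 1 (0.135), 2 (0.0844) or 3 (0.0686), hop control replicate 2 (0.060), or wt control replicate 1 (0.0507), 2 (0.0556) or 3 (0.0635). RPT6A (AT5G19990), the other copy, chosen after its values were seen, had 1557, 1551 and 1506 in hop heat against 1787, 1845 and 1903 in wt heat, a log2 fold change of -0.26 that did not pass the threshold (adjusted p = 0.056). RPT6A was called lower with a stricter filter (adjusted p = 0.0461), edgeR with TMM (0.0412) and DESeq2 (0.0196). RPT6A made up 57.8%, 55.9% and 56.9% of the pair in hop heat against 65.9%, 65.7% and 65.7% in wt heat, and 67.4%, 66.2% and 67.9% in hop control against 68.3%, 69.2% and 71.2% in wt control. The shares did not overlap between the genotypes in either condition, and 3 against 3 libraries cannot give an exact p below 0.10. Such a lack of overlap was not particular to RPT6. Shares of the genotypes were also apart under heat for PBB, PBD, RPT2 and RPT4, and at control for RPN2 and RPN8. The coding sequences of RPT6A and RPT6B are 94.4% identical, the highest value of the 22 pairs.

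Other genes of the ubiquitin pathway were read from a list of 25. Under heat 18 were higher and 3 lower in hop and 18 were higher and 4 lower in wt, and scaling by library size alone gave 8 higher and 13 lower in hop and 8 higher and 11 lower in wt. Of all genes tested, 33.3% were higher and 35.2% lower in hop, and 33.2% and 35.8% in wt. By library size alone these shares were 13.1% and 61.8% in hop and 13.3% and 60.9% in wt. The lowest log2 fold change of the list was -1.05 in hop and -1.08 in wt. NAC078, a transcription factor that drives proteasome genes in Arabidopsis, had 10605, 10639 and 9252 in hop heat and 8309, 9208 and 8096 in wt heat, compared with 1053, 996 and 983 in hop control and 1033, 1019 and 1105 in wt control. All heat libraries lay above all control libraries, and NAC078 rose by 3.33 ± 0.09 in hop and 3.02 ± 0.09 in wt (adjusted p = 4.97e-14 and 1.67e-13). Its partner NAC053 had 625, 647 and 599 in hop heat and 625, 615 and 551 in wt heat, compared with 500, 405 and 502 in hop control and 507, 498 and 496 in wt control. NAC053 rose by 0.42 in hop and 0.25 in wt (adjusted p = 0.00157 and 0.0334), which turned to -0.51 and -0.63 by library size alone.

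The largest rises of the list in wt were those of UBC11, a ubiquitin-conjugating enzyme, NAC078, CHIP, a chaperone-linked ubiquitin ligase, UBQ14, a polyubiquitin gene, CDC48A, an unfoldase that extracts ubiquitylated proteins, and DSK2A, a shuttle receptor. UBC11 averaged 4436 ± 164 in hop heat and 5835 ± 371 in wt heat, compared with 247 ± 30.2 in hop control and 483 ± 13.8 in wt control. It was the only gene of the list called between the genotypes, at a log2 fold change of -0.39 under heat (adjusted p = 0.0196) and one of -0.97 under control conditions (adjusted p = 0.000163). CHIP rose by 2.77 in hop and 2.75 in wt, UBQ14 by 2.75 and 2.70, CDC48A by 1.97 and 1.86 and DSK2A by 1.63 and 1.46, and all 4 were called higher by both scalings.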

How the data were processed

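Whole seedlings were profiled by stranded mRNA sequencing in 12 libraries, 3 in each of 4 groups taken from the labels. The submitters' processing notes list DESeq2 1.1.14, TopHat2 2.1.0 and HTSeq, and the sources used here name no genome build. The deposited table holds, per gene and library, a signal value that the authors made by dividing fragment counts by a size factor, as read from the values: 100% were whole multiples of one step per library within a tolerance of 0.01. These values are called normalized fragments.

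The main test was limma 3.58.1 (trend, robust; R 4.3.3) on log2(value + 1), with 4 group means fitted to all 12 libraries, over the 23827 genes that reached 1 normalized fragment in 3 or more libraries. Fold changes on that scale understate changes of low genes. Alternatives were edgeR 4.0.16 (TMM, or library size alone) and DESeq2 1.42.0 on the recovered fragments, other pseudocounts and filters, a replicate block, only the groups compared, and leaving out each library. On all genes edgeR with TMM called 16358 under heat in hop, 16195 in wt, 1796 for hop against wt under heat, 305 at control and 34 in the difference of the heat responses. Copy ratios were tested by exact permutation over libraries. The limma fit was tried on simulated counts for heat against control in wt, and the permutation test on simulated ratios. The edgeR, DESeq2 and replicate block fits were not tried on simulated data. Python 3.11.15, pandas 2.3.3, scipy 1.17.1, Biopython 1.88 and matplotlib 3.10.9 were used; coding lengths and promoters came from RefSeq TAIR10.1.

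At control, same-numbered hop and wt libraries deviated together (correlations of 0.54, 0.33 and 0.35 over 19633 genes), a pairing read from the data since the labels give only the number. Members, lists and tests were chosen with earlier results of these data known. Values per library are given for the genes with the highest and lowest fold change under heat in wt in each class, those called between the genotypes, the copies of the 6 pairs that changed most and the 2 that changed least, and the most abundant gene per coding length in each class by its mean over the 4 groups; up to 6 genes of the ubiquitin list were named by size of change in wt, and NAC053 and NAC078 always.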

Additional observations from a re-analysis of the deposited data

How the results depend on the processing

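Scaling by library size alone changed most. It gave 6 genes called higher and 50 lower under heat in hop, and 7 higher and 45 lower in wt, and put 25 genes called higher in hop and 28 in wt below 0. Among the proteasome genes named by the rule above, called or not, the sign turned in both genotypes for PAF1 (-0.16 in hop and -0.17 in wt), RPT6B (-0.19 and -0.29), PBC1 (-0.43 and -0.40), PAC1 (-0.81 and -0.79), RPN12A (-0.28 and -0.19), PAE1 (-0.92 and -0.80), RPN10 (-0.81 and -0.72), PBF1 (-0.29 and -0.23) and AT3G02200 (-0.37 and -0.23), and in wt for RPT3 (-0.0038), RPN3A (-0.82) and PAE2 (-0.84). This alternative differs from the others in its scaling. For hop against wt under heat, 1 gene was called in all by library size alone and 1 with only the groups compared. Higher calls there were 1 by edgeR with TMM, 0 by library size alone and 1 with only the groups compared. Lower calls were 0 in the main test. With a stricter filter, edgeR with TMM, DESeq2 and the replicate block 1 gene was called lower, each time RPT6A. With a pseudocount of 0.5, no filter and library size alone 1 was also called lower, but not RPT6A. By library size alone it was a gene of the beta ring. The cause was not tested. Leaving out 1 library at a time gave 40 to 44 calls under heat in hop and 39 to 44 in wt, 0 at control, 0 to 2 for hop against wt under heat (0 to 2 higher and 0 to 1 lower), 0 in the difference of the heat responses, and 18 to 19 changed copy pairs.

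With the replicate block, 35 genes were higher and 10 lower under heat in hop, 36 higher and 9 lower in wt, 0 called at control, 2 higher and 1 lower (RPT6A, adjusted p = 0.0411) in hop against wt under heat, and 0 in the difference of the heat responses. Outside the control groups, too, the labels give only a number. Correlations of same-numbered libraries were 0.14, -0.06 and 0.25 for heat against control in hop and -0.06, -0.27 and 0.13 in wt. For hop against wt under heat they were 0.06, 0.20 and 0.34, where those of unlike numbers lay between -0.30 and 0.13. Whether libraries were paired there was not tested. Groups of 3 libraries limit precision, and levels of few fragments, as for AT1G48530, PAC2 under heat and RPN12B, carry wide counting error.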
